A study of Caenorhabditis elegans with 2 samples.

Results

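The strongest listed peaks of a ChIP-seq experiment on the tagged worm homeodomain protein CEH-91 are described here as a set. They are the peaks of the conservative list with a signal of 270 or more, and they numbered 213 of 1612 listed peaks, which is 13.2%. The list itself held 1612 of 53026 ranked peaks (3.04%). Both samples were whole young adult Caenorhabditis elegans of strain RW12305, 62.5 hours old and synchronised by starving L1 larvae after bleaching. A tag of TY1, EGFP and 3xFLAG had been inserted into their endogenous ceh-91 gene with CRISPR, and chromatin was recovered with an antibody against GFP. The samples are biological replicates 1 and 2 of 1 group, with no untagged or untreated sample analysed here. A whole worm pools every tissue, so the cells in which a site was bound are not given by these data. The peaks were selected on their signal, so signal is described with no test, and tests were made only on position.

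Homeodomain proteins are transcription factors that bind short DNA sequences, many of them with a TAAT core, through a conserved helical domain. Promoters in this worm lie just upstream of transcript starts, and many are shared by a pair of genes that run in opposite directions. A young adult hermaphrodite holds a large germline, in which oocytes load the proteins and RNAs that the embryo needs for its eggshell, its first divisions and the silencing of mobile DNA. A family of proteins called E2F, which act with LIN-35 in the worm, recognises sequences such as GCGCGAA and TTCCCGC at genes of the cell cycle. This is background and was not measured here.

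Sequences around 6 of the 14 strongest summits show how the windows differ. Each is the plus strand of ce11 from RefSeq, 5′ to 3′, with 50 bases on either side of the summit. Capitals mark every copy, on either strand, of the 6-base sequences GCGCGA and CGCGAA (the first family) or ACCGTA (the second family), whose counts are given further on.
hcp-3, III:9617069-9617169: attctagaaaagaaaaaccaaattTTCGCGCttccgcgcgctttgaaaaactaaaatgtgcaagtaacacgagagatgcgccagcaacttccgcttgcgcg
rib-2 and tbb-1, III:10742639-10742739: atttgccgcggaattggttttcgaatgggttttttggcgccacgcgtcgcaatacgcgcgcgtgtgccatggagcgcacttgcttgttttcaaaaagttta
rpl-3, III:3867525-3867625: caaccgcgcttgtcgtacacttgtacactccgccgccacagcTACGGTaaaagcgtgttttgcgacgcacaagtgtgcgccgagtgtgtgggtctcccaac
cpg-1, III:4489066-4489166: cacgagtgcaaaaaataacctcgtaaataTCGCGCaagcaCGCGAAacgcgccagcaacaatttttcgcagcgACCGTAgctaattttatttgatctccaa
T19H12.2 and ugt-12, V:4890113-4890213: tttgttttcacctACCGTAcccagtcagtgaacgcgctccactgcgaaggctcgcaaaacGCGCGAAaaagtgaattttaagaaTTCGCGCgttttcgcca
pygl-1, V:3578960-3579060: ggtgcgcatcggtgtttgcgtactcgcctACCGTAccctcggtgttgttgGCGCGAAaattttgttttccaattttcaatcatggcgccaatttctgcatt
The windows at cpg-1, T19H12.2 and pygl-1 held both families, those at hcp-3 and rpl-3 held 1 of them, and that of tbb-1 held neither.

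Other strong windows had stretches of sequence in common. The strongest listed peak, whose signal was 1362, shared an unbroken stretch of 90 bases with the window of the peak at rank 37 (signal 625), which lies elsewhere on the same chromosome. It shared a stretch of 24 bases with the window at mog-4, rank 3. Capitals mark the longest stretch shared with the strongest window or, in the first line, with that at rank 37.
Rank 1, IV:9196364-9196464, plus strand: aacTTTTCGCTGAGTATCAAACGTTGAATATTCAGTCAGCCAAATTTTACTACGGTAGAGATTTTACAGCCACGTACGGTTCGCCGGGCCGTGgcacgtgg
Rank 37, IV:3313485-3313585, plus strand: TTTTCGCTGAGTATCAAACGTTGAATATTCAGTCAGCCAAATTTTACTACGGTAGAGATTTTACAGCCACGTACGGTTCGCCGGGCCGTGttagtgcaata
Rank 3 at mog-4, II:14561805-14561905, minus strand: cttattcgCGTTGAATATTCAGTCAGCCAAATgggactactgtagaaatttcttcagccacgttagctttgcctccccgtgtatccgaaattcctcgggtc

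Signal ran from 270 to 1362 over the strongest peaks, with a median of 413, against a median of 113 over the 1399 other listed peaks. The authors' signal value is in a unit of the peak caller that the sources used here do not define, and it served only to rank peaks within a list. The set held 36.8% of the summed signal of all listed peaks. All 213 had the smallest global irreproducible discovery rate written in the list, 1e-05, as did 97 other listed peaks. The threshold fell in a dense stretch of values. Just inside it were the peaks at C14B9.10 and rpl-21 (275), puf-7 and snpc-3.1 (274.7), fust-1 (274.6), Y54G2A.12 (270.7) and ntl-11 (270.4). Just outside were those at trcs-1 (269.6), at trap-3 and sec-61.B (269.42), at R148.4 (269.417), at prom-1 and rpoa-2 (269.38) and at bub-3 and Y54G9A.7 (269.2).

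**Figure D1:**
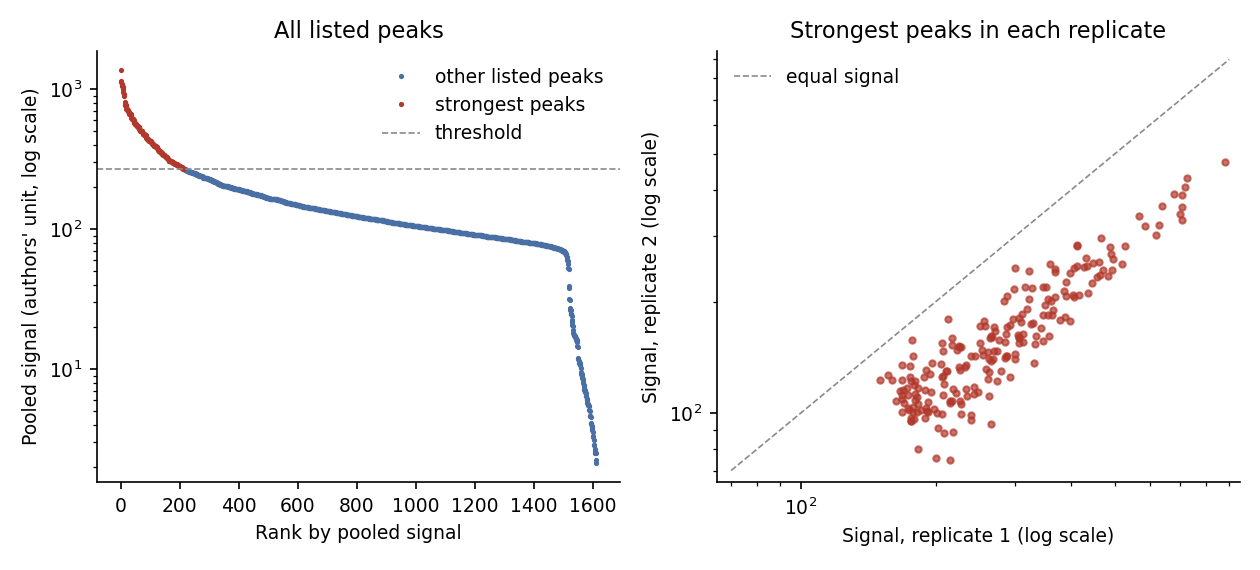
Left, the pooled signal of all 1612 listed peaks (log axis) against rank, with the 213 strongest in red and the threshold of 270 dashed. Right, the signal of each strongest peak in replicate 2 against replicate 1, both axes log, where all 213 points lie below the line of equal signal.

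Every one of the 213 overlapped a listed peak in both replicates, against 600 of the 1399 others (42.9%, exact 95% interval 40.3 to 45.5). Over all 1612 listed peaks the share was 50.4%. A count of 0 missing peaks allows a share of up to 1.41% that are not listed in both. The next 213 peaks by signal came close, at 97.7%. The pooled signal was nearly the sum of the replicates' signals (median ratio 1.00, range 0.887 to 1.05), so listing and signal in the replicates are not independent of the rule and were not tested.

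Replicate 1 gave the higher signal at all 213 peaks, with a range of 150 to 882 and a median of 265, against 74.8 to 476 and a median of 148 in replicate 2. The median log2 difference, replicate 1 minus replicate 2, was 0.82 with an SD of 0.24 across peaks. Over the 600 other peaks listed in both replicates the median was 0.70 and the SD 0.37. The scale belongs to each library, so the offset cannot be told apart from a difference in binding. The order of the peaks was largely kept, with a Spearman rank correlation of 0.870 over the 213 and a Pearson's r of 0.906 on log2 values; peaks share libraries and are no independent replicates. Of the 213, 201 were among the 213 strongest of replicate 1 and 188 among those of replicate 2, and 177 were in both. Replicate summits lay a median of 10 bp apart, and within 50 bp in 209 peaks, where other shared peaks had a median of 19 bp.

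The peaks whose rank differed most between replicates are given as a description, since the pooled signal that chose them follows replicate 1 more and the replicate lists differ in length. The peak between rps-1, a small-subunit ribosomal protein gene, and ifet-1, which encodes a translational repressor of the germline, was at rank 149 of 1180 in replicate 1 and 395 of 974 in replicate 2. Its signal was 215 and 74.8. The others were at sqd-1 (ranks 164 and 382), at R186.8 and lin-46 (181 and 346), at ash-2, a subunit of the complex that methylates histone H3 (106 and 264), and at ari-1.4 (142 and 296). Of these 5, ash-2 had the highest pooled signal, 356. No peak of the set ranked below 276 in replicate 1 or 395 in replicate 2.

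Most of the strongest peaks lay in promoters, taken as the stretch from 1000 bp before to 200 bp after an annotated start. Their summits were in a promoter in 192 of 213 peaks (90.1%, exact 95% interval 85.3 to 93.8), against 1103 of 1399 other listed peaks (78.8%, 76.6 to 81.0). The odds ratio was 2.45, with a 95% interval of 1.54 to 3.92, and passed a two-sided test (Fisher's exact, adjusted p = 0.000241). In exons there were 1 strongest summit and 51 others (odds ratio 0.125, 0.0171 to 0.907; exact test, adjusted p = 0.0142). Introns held 4 and 96 (0.260, 0.0945 to 0.714; exact test, adjusted p = 0.00655). Intergenic sequence held 7.51% and 10.7%, a difference that did not pass (0.681, 0.398 to 1.17; exact test, adjusted p = 0.182). Adjustment was over the 4 classes, and p-values are over peaks of these libraries, not over worms.

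The difference in location did not set the strongest peaks apart from those just below them. The next 213 peaks had the same counts in all 4 classes, 192, 1, 4 and 16, so each odds ratio against them was 1.00. The promoter share stayed at 89.2% at ranks 427 to 639 and fell from there to 59.5% at ranks 1492 to 1612. Without replicate 1, that is in the list of replicate 2 with the same share of peaks taken as strongest, the promoter odds ratio was 1.18 and did not pass (exact test, adjusted p = 0.683). The exon odds ratio was 0.307 without replicate 1 and 0.269 without replicate 2, and neither passed. Without replicate 1 the intron odds ratio was 0.146 and did not pass, and the intergenic one was 1.50, the other direction.

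**Figure D2:**
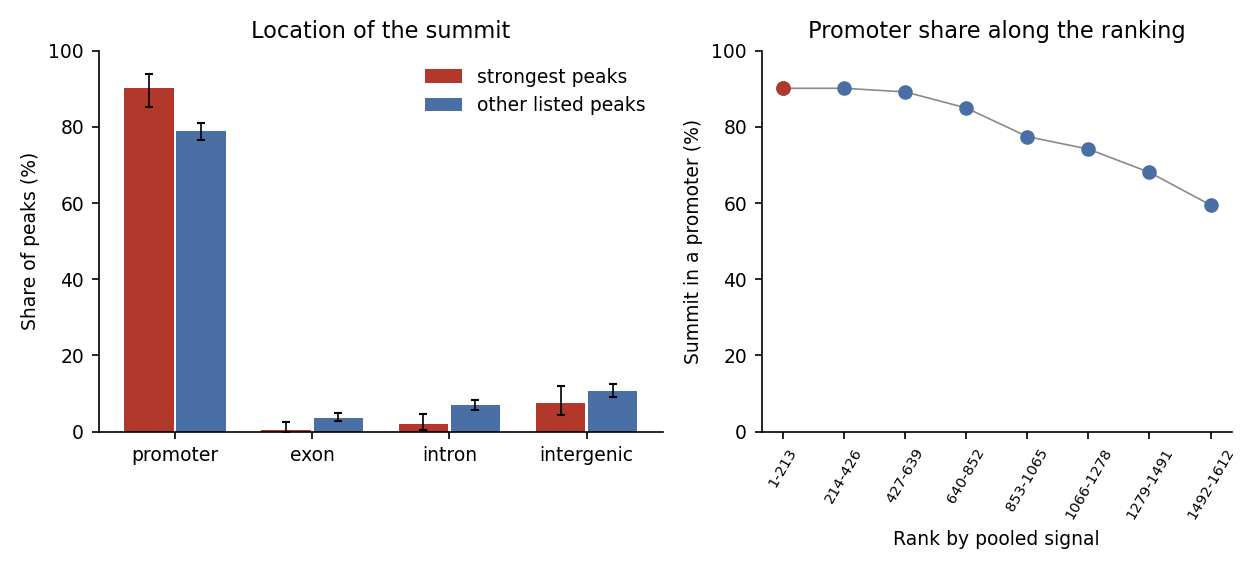
Left, the share of summits in each location class for the 213 strongest and the 1399 other listed peaks, with exact 95% intervals as error bars. Right, the share in a promoter for successive groups of peaks by rank, 90.1% in each of the first 2 groups and 59.5% in the last.

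Summits of the strongest peaks tended to sit at some distance from a start. The distance to the nearest annotated start had a median of 234 bp (quartiles 123 and 400), close to the 228 bp of the other listed peaks, whose quartiles were wider at 84.5 and 560.5. Between 100 and 500 bp lay 130 strongest summits (61.0%) and 45.5% of the others, while 44 (20.7%) and 27.2% lay within 100 bp. Beyond 1000 bp there were 19 (8.92%) and 15.9%. The next 213 peaks by signal had 54.5% between 100 and 500 bp, 27.7% within 100 bp and 7.98% beyond 1000 bp. The low share beyond 1000 bp was thus not particular to the strongest. Of the 182 peaks with a protein-coding start in the window, the summit was a median of 234 bp upstream of the nearest one (quartiles 129 and 353), and in 6 of the 213 it was downstream of that start. These are descriptions with no test.

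**Figure D3:**
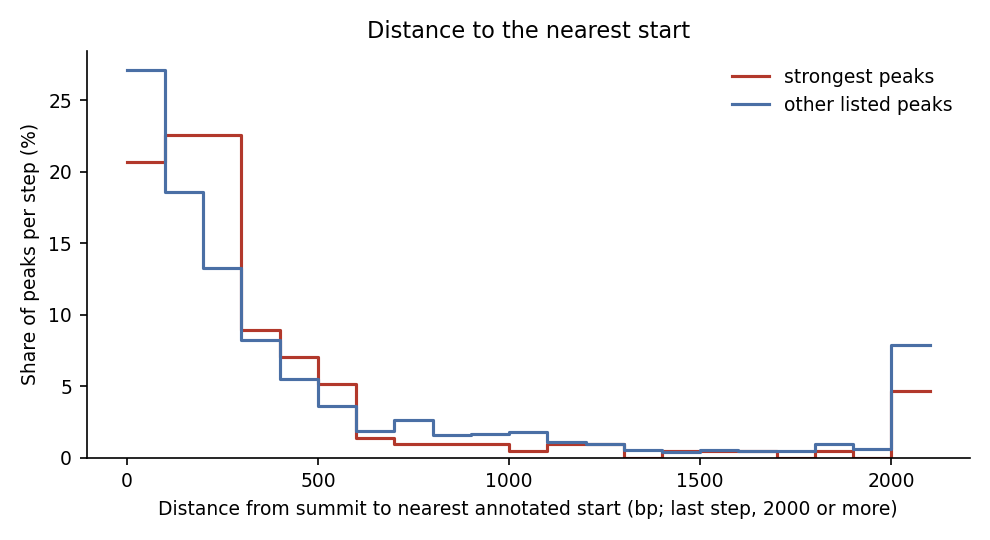
Share of peaks, in steps of 100 bp, by distance from the summit to the nearest annotated start of any gene type. The strongest peaks (red) exceed the other listed peaks (blue) between 100 and 600 bp and are fewer within 100 bp.

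The summits nearest a start were those at the piRNA gene 21ur-15059 beside Y54G2A.12 (3 bp), at skpt-1, an F-box gene related to human SKP2 (6 bp), at Y39B6A.43 (10 bp), at rab-18 with kbp-4 (12 bp) and at the pseudogene WBGene00019095 (12 bp). At the other end, 5083 bp from any start, was a peak in an intron of mod-5, the serotonin reuptake transporter gene (I:3037931-3038181, signal 481). Then came intergenic peaks near K08F11.1 (4155 bp), cpt-1 (3660 bp) and plk-2, a Polo kinase gene of meiosis (3348 bp), and a further peak in mod-5 (3066 bp).

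Genes on either side often pointed away from the peak. The flanking protein-coding genes ran in opposite directions away from the summit at 112 of the 213 (52.6%) and at 458 of the 1399 others (32.7%), and toward it at 3 and 84. They ran the same way at 72 and 432, and 26 summits (12.2%) lay inside a protein-coding gene against 425 (30.4%). The next 213 peaks by signal were nearer, at 47.9% with genes running away from the summit and 19.7% inside a gene. None of these counts was tested. Among peaks with a protein-coding start in the window, starts on both strands were found in 81 of 182 (44.5%, exact 95% interval 37.2 to 52.0) and in 345 of 932 others (37.02%, 33.9 to 40.2). That difference did not pass, at an odds ratio of 1.36 and an interval of 0.990 to 1.88 (Fisher's exact, two-sided p = 0.0664). It passed with the window widened to 2000 bp upstream (1.45; exact test, p = 0.0205) and with the strongest set at 200 or more (1.55; exact test, p = 0.00133). The odds ratio was 0.928 against the next 213 peaks, 1.04 with a global rate of at most 0.001, 1.09 without replicate 1 and 1.16 without replicate 2. The starts of such pairs were a median of 556 bp apart in the strongest peaks and 577 bp in the others.

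A pair of opposed genes shared a strong peak at many places. The peak between pos-1, an RNA-binding protein that patterns the early embryo, and the proton pump gene vha-18 had a signal of 708 (465 in replicate 1 and 236 in replicate 2). That between the kinesin gene klp-18, needed for the meiotic spindle, and cogc-2, a Golgi complex gene, had 704 (413 and 283). The nuclear pore gene npp-3 and the topoisomerase II gene top-2 shared 668 (427 and 248), and the kinesin gene klp-16 and the splicing-complex assembly gene smn-1 shared 661 (406 and 246). The histone methyltransferase gene set-16 and drr-2 shared 600.1 (390 and 207). In each, replicate 1 was the higher.

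No strongest peak lay on X among those listed. The ranked list also held 30 peaks at or above a signal of 270, with a global rate of at most 0.01, that the authors did not list, and 5 of these were on X. The 213 fell 54 on I, 44 on II, 41 on III, 47 on IV and 27 on V. The 0 on X had an exact 95% interval of 0 to 1.72%, or up to 1.41% by the limit of 3 counts. Of the 1399 others, 43 (3.07%, exact 95% interval 2.23 to 4.12) were on X. The odds ratio with a continuity correction was 0.0730, with an interval of 0.00448 to 1.19, and passed the Fisher's exact test over 6 chromosomes (two-sided, adjusted p = 0.0272). Chromosome IV held 22.1% against 16.01% and did not pass after adjustment (odds ratio 1.49, 1.04 to 2.12; exact test, adjusted p = 0.0919), nor did the other 4 chromosomes. Of the other X peaks, 2 were among the next 213, and 14, 14 and 4 were in the last 3 groups by rank, from rank 1066 to 1612. The call for X was lost without replicate 1 (0.238, adjusted p = 0.701 by the exact test), without replicate 2 (0.142, adjusted p = 0.205) and under 4 other settings given further on.

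The 21 strongest peaks outside promoters were 16 intergenic, 4 intronic and 1 exonic. The highest was I:316065-316404, between imb-3, an importin gene, and xpo-2, an exportin gene, with a signal of 1052 (708 in replicate 1 and 360 in replicate 2) and 1268 bp from the nearest start. Next were IV:3313378-3313652 near zip-11 (625; 391 and 225), II:4047933-4048199 near gadr-4 (573; 367 and 206), I:2639705-2639957 near mage-1 (564; 361 and 200.4) and III:9408387-9408607 near T26G10.1 (538; 301 and 246). The intronic peaks were the pair in mod-5 (481 and 320), 1 in F46F11.7 (323) and 1 in C44B9.2 (299). The exonic one was in C34C12.2 (380). The remaining intergenic peaks, from 471 down to 277, lay near pisy-1, zyg-11, the microRNA gene cel-mir-72, ife-5, map-2, jmjd-2, slmp-1, Y48B6A.23, K08F11.1, cpt-1 and plk-2. Those near jmjd-2 and Y48B6A.23 (394 and 340) were both in the gap between jmjd-2, a histone demethylase gene, and hmg-1.1.

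Repeated sequence was common at these 21. In 10 of them (47.6%), over 50% of the 20-base words in the window occurred at more than 1 place in the genome, against 18 of the 192 in promoters (9.38%). Among the other listed peaks the shares were 34.5% and 10.7%, and over all the strongest peaks 13.1% against 15.7% of the others. Reads from identical copies cannot be assigned to 1 of them by sequence, and how the authors' alignment treated such reads is not given in the sources used here; its part in the signal was not tested.

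Exact stretches of 20 or more bases joined 57 of the 213 windows into 17 families. No such count is given for the other listed peaks, so it cannot be read as particular to the strongest. The largest family had 9 peaks, at ranks 1, 3, 6, 37, 47, 76, 111, 185 and 189, and includes the windows printed above with their shared stretches in capitals. Their signal ran from 290 to 1362, and in 5 of the 9 the summit was outside promoters. In 8 of them over 50% of the words were repeated, and the longest stretch shared within the family was 90 bp. A second family joined 7 promoter peaks by up to 40 bp, among them those at rps-24, dnj-28, npp-6 and eel-1. Another joined the peak at rpa-2 (1041) with 1 near K08F11.1 (662) by 67 bp. In a separate family, the peaks at the kinesin genes klp-15 and klp-16, close relatives of each other, shared 27 bp.

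Short sequences near the summit also differed between the sets, with no test made because they were picked by that difference. GCGCGA and its reverse complement were in 74 of the 213 windows (34.7%), against 10.9% of the other listed peaks, 18.8% of the next 213 and 2.10% of ranked peaks that did not pass. The shares for CGCGAA, which overlaps it, were 34.7%, 13.2%, 20.7% and 3.24%. For ACCGTA they were 30.05%, 14.8%, 22.5% and 3.62%. The other 6-base sequences with large differences, GCGAAA (35.2% and 18.7%) and CGAAAA (38.0% and 23.2%), overlap the first family. A match is a description and does not show a bound site.

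Among 8 sequences searched as known types, with no test, the E2F-type GCGCGAA was in 22.5% of strongest and 6.15% of other windows, and TTCCCGC in 11.3% and 4.72%. GCGCGAA contains both GCGCGA and CGCGAA, so its windows are among those already counted for them. The 8 sequences were chosen with earlier results of these data known. The homeodomain-type TAATTA was in 1 strongest window (0.469%), against 2.79% of the others and 3.06% of ranked peaks that did not pass. TAATTA holds only A and T. So do AAAATA (16.4% and 23.7%) and TAAAAA (14.6% and 21.7%), which had the largest negative differences among 6-base sequences. The share of TAATTA was not split by GC level, and the TAAT core alone was not searched. These shares therefore cannot show whether homeodomain sites were fewer in the strongest windows. TATAAA was in 3.76% and 5.15%, GAGAGA in 11.3% and 10.3%, CACGTG in 2.35% and 2.57%, GGTTCGA in 1.88% and 3.00%, and a run of 8 T in 6.57% and 6.72%. GC content was higher in the strongest windows, with a median of 47.5% against 44.6%. The next 213 peaks by signal were nearer, at 46.5%.

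The share with the first family was higher in the strongest windows at each of 3 GC levels, with no test. GCGCGA or CGCGAA was in 94 of 213 strongest windows (44.1%) and 243 of 1399 others (17.4%). In windows under 40% GC the shares were 48.8% and 12.6%, between 40% and 50% they were 48.4% and 18.5%, and at 50% or more they were 36.4% and 21.4%. Leaving out repeated windows gave 46.5% and 18.6%, and promoter windows alone 45.8% and 18.6%. ACCGTA, left without repeated windows, was in 29.2% and 16.6%. Either family was found in 131 strongest windows (61.5%) and 29.7% of the others, and both in 27 (12.7%) and 2.50%. Along the ranking, the share with the first family was 44.1%, 25.8%, 20.2%, 16.4%, 21.1%, 15.02% and 11.3% in successive groups of 213 peaks and 7.44% in the last 121.

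**Figure D4:**
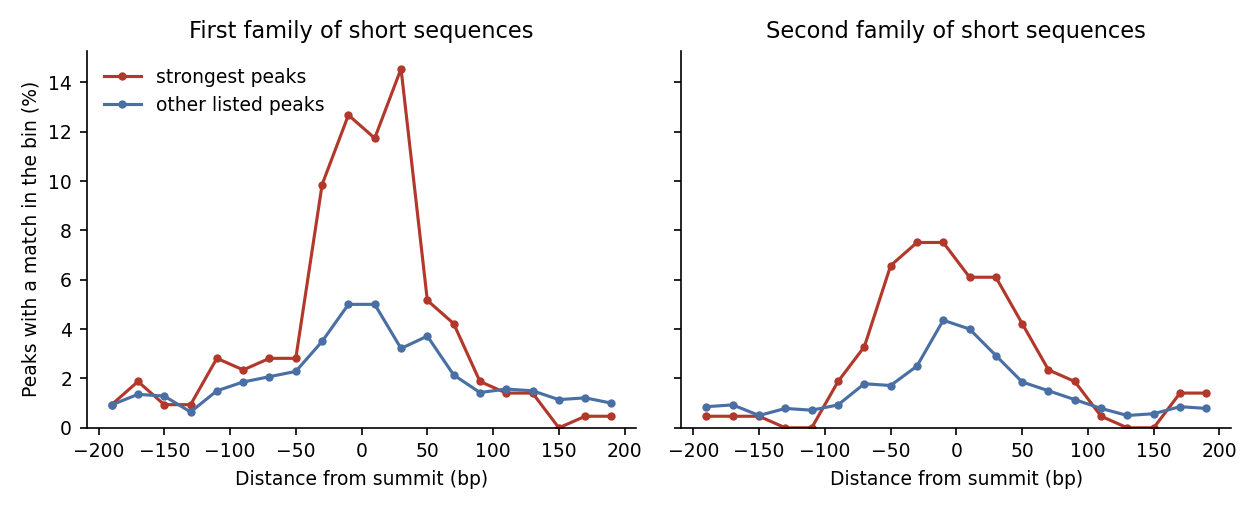
Share of peaks with a match to the first (left) or second (right) family in bins of 20 bp around the summit, for strongest (red) and other listed peaks (blue). Within 40 bp of the summit a bin held a first-family match in a mean of 12.2% of strongest and 4.18% of other peaks, and beyond 100 bp in 1.13% and 1.22%; the words were chosen on matches within 50 bp of the summit.

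The words of both families were chosen for their excess in strongest windows within 50 bp of the summit, so more matches there in these peaks follows in part from that choice. The mean share of strongest peaks with a first-family match per 20 bp bin was 12.2% within 40 bp of the summit and 1.13% beyond 100 bp. For the second family it was 6.81% and 0.469%. Other listed peaks had 4.18% and 1.22% for the first family and 3.45% and 0.729% for the second.

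A strongest summit lay in the promoter window of 269 protein-coding genes, which is 18.3% of the 1473 with any listed peak and 1.35% of the 19985 annotated. Of the 269, 129 were in 1 or more of 20 gene lists and 140 in none. The lists are not exhaustive, so a share depends on which genes its list holds. For example, ash-2, nasp-2 and the E3 ligase genes eel-1 and ubr-5 were in no list. Shares per list are read against that 18.3% and carry no test, and medians of signal are over the list's genes with any listed peak, against 149 over all such genes.

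Genes of the oocyte and its eggshell had the highest share, with a strongest peak at 9 of 18 genes with a listed peak (50%) and a median signal of 277. They were led by the chondroitin proteoglycan genes cpg-1 (signal 910; 620 in replicate 1 and 303 in replicate 2) and cpg-2 (613; 405 and 209). Next were egg-4, which blocks the kinase MBK-2 until the egg is activated (546; 350 and 195), and the chitin synthase gene chs-1 (533; 347 and 184). The egg receptor gene egg-1 (502), the eggshell gene perm-1 (499), the yolk receptor gene rme-2 (430), cbd-1 (332) and oma-1 (318) completed the group.

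Genes of chromosome segregation followed. Of tubulin, centrosome and spindle genes 10 of 23 had a strongest peak (43.5%, median 230), namely the beta-tubulin gene tbb-1 (1084), the kinesin genes klp-18 (704), klp-16 (661), bmk-1 (518) and klp-15 (437), the katanin gene mei-2 (469), gpr-2, lin-5, spd-5 and aspm-1. Of centromere and kinetochore genes 9 of 21 did (42.9%, median 213). These were hcp-3, which encodes the centromeric histone (1151), hcp-4, which encodes CENP-C (1010), hcp-1 (773), czw-1 (557), knl-3, rod-1, klp-7, csc-1 and kbp-4. Cohesin and meiotic chromosome genes had 7 of 26 (26.9%, median 180), with the synaptonemal complex genes syp-5 (564) and syp-6 (469) and the kleisin genes coh-3 (518), coh-4 (413) and rec-8 (395) among them.

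Germline RNA regulators gave the most genes of any list, 17 of 46 (36.96%, median 237). They included mog-4, a helicase gene needed for the switch from sperm to oocytes (1119), oef-1 (769), pos-1 (708) and mex-1 (663; 412 and 250 in replicates 1 and 2). The Pumilio-family genes puf-3 (580), puf-11 (504), puf-6 (284) and puf-7 (275), the P granule helicase gene glh-2 (505) and the nuclear Argonaute gene hrde-1 (433) were also there, with mex-3, mex-5, larp-1, wago-4, oma-1, spn-4 and tofu-6.

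DNA replication and repair had 9 of 36 (25%, median 163), with rpa-2 (1041) and rpa-1 (499), which encode subunits of the single-strand binding complex, top-2 (668), the helicase genes mcm-2 (652), mcm-4 (327) and mcm-3 (285), the sliding clamp gene pcn-1 (480), rnr-1 and tim-1. Cell cycle regulators had 5 of 20 (25%, median 153), with plk-1 (406), cyb-2.2 (362), cyb-3 (318), ify-1 and lin-35. Chromatin modifiers had 6 of 30 (20%, median 173), with lin-9 (723; 462 and 256), set-16, set-21 (545), lin-54 (466; 330 and 137), hat-1 and isw-1. Histones and their chaperones had 3 of 15 (20%, median 215), the histone chaperone gene unc-85 (951), lin-53 (500.2; 325 and 173) and the H2A.Z gene htz-1 (373). LIN-9, LIN-53, LIN-54 and LIN-35 are some of the subunits of the DREAM complex, which represses cell cycle genes. No list was made for that complex, so no share of its genes is given. The genes efl-1, dpl-1, lin-37 and lin-52, for other subunits, had no strongest peak in the window. Starts of nra-2, rpl-12 and vps-51 shared the peaks of lin-53, lin-54 and lin-35. The start of rpl-12 was nearer, at 26 bp against 367 bp for lin-54. The gene lin-35, with a signal of 290 (175 and 102), was picked for mention after its value was seen.

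Among genes for protein synthesis, ribosomal proteins had 16 of 54 (29.6%, median 180), led by rpl-3 (1039; 698 and 345), rpl-20 (757), rpl-35 (716) and rpl-15 (678). Mitochondrial ribosomal proteins had 1 of 9 (11.1%, median 96.2), mrpl-15 (340), and translation factors and tRNA synthetases 1 of 18 (5.56%, median 172), ifet-1. Splicing had 3 of 35 (8.57%, median 147), mog-4, prp-19 (569) and rsp-6 (306), and transcription machinery and regulators 4 of 33 (12.1%, median 116), snpc-3.4 (475), nhr-86 (301), cey-2 and snpc-3.1.

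In metabolism, glycolysis and carbohydrate genes had 5 of 14 (35.7%, median 204). They were rib-2, a heparan sulfate synthesis gene that shares the peak of tbb-1, pgk-1, which shares that of hcp-4, the glycogen phosphorylase gene pygl-1 (807), gpd-1 (611) and aldo-2 (408). Oxidative phosphorylation had 4 of 28 (14.3%, median 154), with the cytochrome oxidase genes cox-5B (621), cox-5A (305) and cox-6B (281) and with nduc-2 on the peak of cox-6B.

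The remaining lists were near the share over all genes with a listed peak, 18.3%. Chromatin modifiers and histones with their chaperones, at 20% each, were as near. DNA replication and cell cycle regulators, at 25% each, were little above nuclear pore and transport. Nuclear pore and transport had 5 of 21 (23.8%, median 181), with npp-3 (668), ran-1 (435), ima-1 (406), ima-2 (337) and npp-6. Membrane traffic had 7 of 31 (22.6%, median 149), with cogc-2 (704), rab-5 (643), vps-39 (555) and sec-61.G (437) highest. Chaperones had 6 of 29 (20.7%, median 155), with cct-8 (511), cct-5 (482), hsp-60 (470), dnj-28 (440), hsp-90 and hsp-1. Proteasome and ubiquitin genes had 5 of 26 (19.2%, median 194), with cdc-48.1 (768), usp-4 (423), ubc-6 (387), ubq-1 (379) and smo-1. Where a peak has starts on both strands, the lists count both genes, and which of them it belongs to cannot be told apart. Some list genes have their peak in a window of mostly repeated 20-base words. Among them are rpa-2 (85.4% repeated), mog-4 (78.0%) and puf-7 (75.6%). At the rpa-2 peak the start of a long non-coding RNA gene, M04F3.7, was nearer (576 bp against 653 bp).

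**Figure D5:**
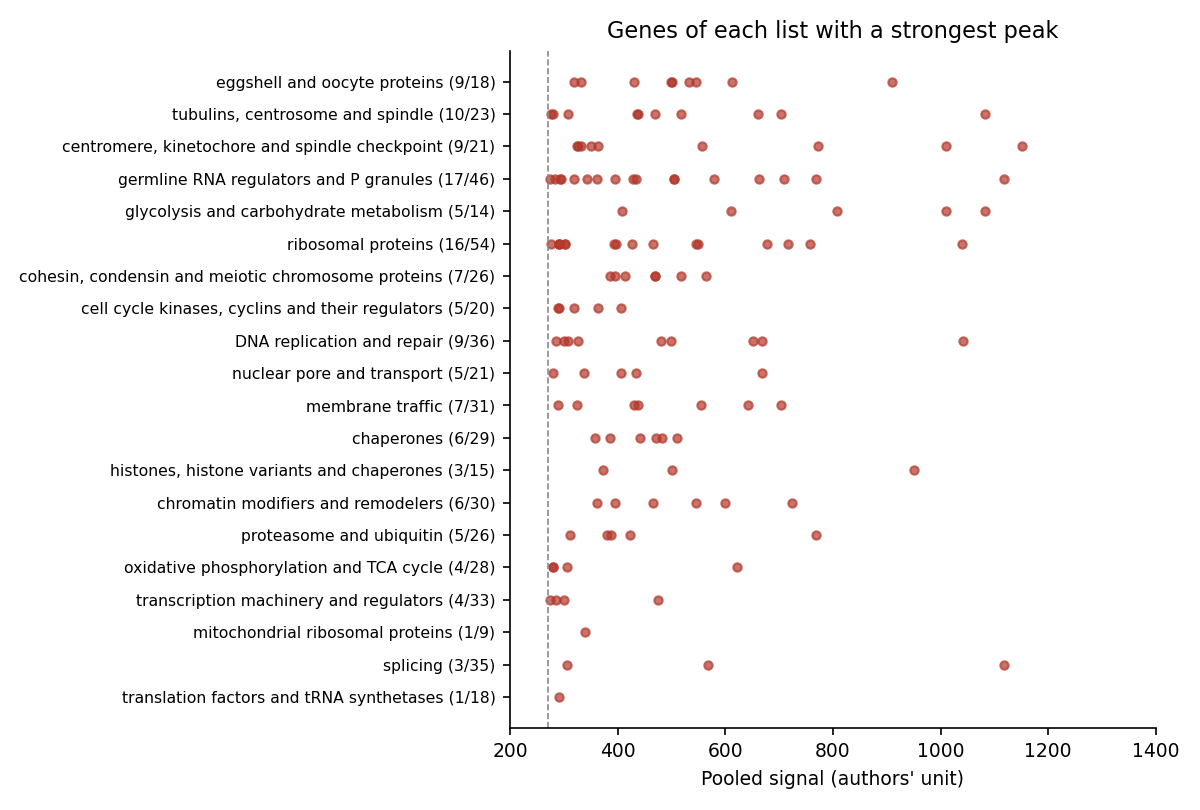
Pooled signal of each gene's strongest peak for 20 gene lists, ordered from the highest share of listed genes with a strongest peak (top) to the lowest; numbers after each name are genes with a strongest peak over genes with any listed peak. Each point is a gene, the dashed line is the threshold of 270, and eggshell and oocyte genes head the list at 9 of 18.

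Some of the 45 highest peaks had no protein-coding start in the window or one in no list. The strongest listed peak, IV:9196250-9196579 between C46C2.7 and wnk-1 (1362; 882 and 476), was 1 of these. Its window held only the start of a non-coding RNA gene, C46C2.12, at 399 bp, and 91.5% of its 20-base words were repeated. The peak at I:13310681-13310955 (signal 717; 484 and 234) had only the start of a tRNA gene, WBGene00014503. That at IV:4725477-4725718 (662; 445 and 224) had only a non-coding RNA gene, and that at IV:4727907-4728181 (918; 568 and 340) only a pseudogene, WBGene00023323. In all, 10 of the 213 had starts of such genes or pseudogenes alone, against 171 of the 1399 others (4.69% and 12.2%). The next 213 peaks by signal were close to the strongest, with 13 (6.10%). Among protein-coding genes outside the lists were kin-35 (1071; 679 and 391), tasp-1 (776), acs-13 (726), K05C4.4 (692), mtcu-2 (601), nasp-2, a histone chaperone relative (694), the E3 ligase genes eel-1 (670) and ubr-5 (611), nmat-2 on the peak of rab-5 (643) and sgo-1, which encodes a shugoshin, a protector of cohesion (616). The peak at F54E12.2, beside the histone gene his-45, had 615.

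Widths differed along with signal. The strongest peaks had a median width of 209 bp (quartiles 180 and 246), while 89.7% of the other listed peaks were exactly 310 bp wide, as was 1 of the strongest. Of the strongest peaks, 2 overlapped another listed peak, against 182 of the others (13.0%). Of the next 213 peaks, 40.8% were 310 bp wide and 1.41% overlapped another. All 213 had the same coordinates in the list made from pooled pseudoreplicates, which shares its reads with the conservative list and gives no independent check.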

How the data were processed

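Both replicates were processed by the authors, who deposited ranked and thresholded peak lists on ce11 per the labels. Aligner and peak caller were not given in the sources used here. The deposited notes name 1 shared control for both replicates. Per peak, the deposited lists give a signal, a score and a −log10 of the global discovery rate; signal ranked the peaks, the −log10 value set the stricter alternative, and the score was not used further. The lists hold no read counts, so depth is unknown and intervals cover counting over peaks only.

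Summits were placed on Ensembl release 115 gene models for WBcel235; 0 of 181719 peaks lay beyond a chromosome end, and 19354 of 19425 protein-coding genes matched by symbol overlapped RefSeq's. A summit was assigned to promoter, exon, intron or intergenic, in that order, and a replicate listed a peak where at least 1 bp overlapped. Tests were two-sided Fisher's exact tests (scipy 1.17.1, Python 3.11.15) with Benjamini-Hochberg adjustment within a family and Woolf intervals for odds ratios, and were tested on simulated data. Shares have Clopper-Pearson 95% intervals, and the limit for a count of 0 is 3 counts of the total. Short sequences were searched on both strands within 50 bp of the summit.

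Peaks named are the 45 strongest, every one outside a promoter, the 5 on each side of the threshold, the 3 strongest per chromosome, the 4 strongest per list, the 5 extremes of distance and of replicate rank, and further list members; 1 of the 45 strongest is not reported here. The members, gene lists and searched sequences were chosen with earlier results of these data known. Nothing in the labels says how separately the replicates were grown.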

Additional observations from a re-analysis of the deposited data

How the results depend on the processing

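Values below are odds ratios of the strongest against other listed peaks unless stated. Against the next 213 peaks, promoter, exon and intron calls were lost (each 1), as was X (0.198), and starts on both strands, I and II changed direction (0.928, 0.976 and 0.972). With a global rate of at most 0.001, promoter (1.49), exon (0.370), intron (0.371) and X (0.160) no longer passed. With the strongest set at 400 or more, exon (0.124) and X (0.150) did not pass. At 200 or more, intergenic (0.570) and starts on both strands (1.55) did, and the latter also with the window at 2000 bp upstream (1.45). Leaving out peaks in repeated windows, a setting chosen after seeing the data, ended the call for X (0.133). Fewer peaks enter the stricter sets; otherwise the cause was not tested. Over leaving out replicate 1 or 2, promoter ranged from 1.18 to 2.12, exon from 0.269 to 0.307, intron from 0.109 to 0.146, intergenic from 0.806 to 1.50, starts on both strands from 1.09 to 1.16, I from 0.891 to 1.00, II from 0.920 to 1.22, III from 0.986 to 1.03 and X from 0.142 to 0.238. Exon and X lost their call without either replicate, and promoter and intron without replicate 1. Requiring 50% of a peak to be covered lowered the share listed in both replicates from 100% to 92.5%. Promoter kept its call in 9 of 12 alternatives, exon in 7, intron in 9, and X in 3 of 9. Chromosomes IV and V kept direction and stayed past no threshold in all 9. No paired analysis was possible because the samples form 1 group. Read depth is unknown, so what it limits could not be measured.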

Other observations

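The ranked list of the conservative comparison held 30 peaks with a signal of 270 or more that the authors did not list, although all 30 had a global rate of at most 0.01. Their highest signal was 2062, above that of every listed peak, 5 of them were on X, and none overlapped a strongest peak. Why they were left out is not given in the sources used here, and they entered no comparison.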
